A study of Mus musculus with 9 samples.

Results

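The interferon response genes examined here are 38 genes that cells switch on when interferon reaches them, chosen by name from the gene table of whole mouse liver. The rule uses no measured value, but it was written with earlier results of these data known. All 38 were found among the 43346 genes listed, and all 38 were among the 15024 genes that carried enough reads to be tested. Livers came from 12-week-old mice of strain C57/BL6 that underwent 70% partial hepatectomy, in which most of the liver is removed and the remnant regrows. There were 3 groups of 3 livers: the resection specimens of vehicle-treated mice (0 h, the baseline), the remnants of vehicle-treated mice at 40 h, and the remnants of mice given NSC87877 (NSC), an inhibitor of the phosphatases SHP2 and SHP1, at 7.5 mg/kg per dose, 2 doses a day. The sample records and the study's account of its resection specimens place the first dose 12 h before surgery, whereas its methods section has 1 day before. Every group was operated on, and the baseline livers had received vehicle but had not regenerated. The 9 libraries include no resection specimens from NSC-treated mice, and the 3 vehicle baseline livers serve as the reference of both 40 h groups.

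Interferons are secreted proteins that bind receptors on nearly every cell type. Type I and type III interferons act through the kinases JAK1 and TYK2 to assemble a factor that contains STAT2 and IRF9 and binds the interferon-stimulated response element (ISRE), and type II interferon acts through JAK1 and JAK2 on genes that carry the gamma-activated site (GAS). The genes so induced block viruses by degrading their RNA, by stalling translation or by trapping particles, and many also amplify the response. In liver they are expressed at a low level without infection, in hepatocytes as well as in Kupffer cells, the resident macrophages. SHP2, encoded by *Ptpn11*, and SHP1, encoded by *Ptpn6*, are phosphatases known to act on the JAK and STAT proteins, which is a reason to examine these genes in livers treated with NSC. Transcript levels in whole liver do not measure the action of these phosphatases.

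The letters that interferon-activated factors recognize stood before many of the members. Windows of 300 bases, from 250 before to 50 after the transcription start, were available from RefSeq (GRCm38.p6) for 30 of the 38 members, and *Rtp4*, *Dhx58*, *Oas2*, *Mx2*, *Mx1*, *Parp9*, *Usp18* and *Parp14* had no entry. ISRE letters were searched as GAAANNGAA or, on the other strand, TTCNNTTTC. They were in the windows of 21 of the 30 members (70.0%) and of 9.76% of all 27025 genes with a window. GAS letters, TTCNNNGAA on either strand, were in 11 of the 30 (36.7%) and in 9.55% of all genes. The following stretches before the start are shown because most of their genes are described liver by liver below, and before the start means before the RefSeq start. In *Adar*, *Irgm1*, *Irgm2* and *Trim25* the gene as listed in the count table has another start, and the stretch lies at least partly inside the listed gene. They are read 5′ to 3′ on the strand of the gene, with the ISRE letters in capitals.
Stat2 (chr10:128270252-128270310): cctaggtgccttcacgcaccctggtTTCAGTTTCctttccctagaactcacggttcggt
Isg15 (chr4:156200851-156200921): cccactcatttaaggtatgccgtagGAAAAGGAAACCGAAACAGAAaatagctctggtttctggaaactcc
Trim25 (chr11:88999369-88999402): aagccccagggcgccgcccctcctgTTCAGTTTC
Ifih1 (chr2:62646334-62646392): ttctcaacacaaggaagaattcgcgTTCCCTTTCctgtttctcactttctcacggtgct
Ifit1 (chr19:34640755-34640838): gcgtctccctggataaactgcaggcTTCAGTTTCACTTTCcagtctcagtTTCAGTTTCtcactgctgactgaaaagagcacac
Ifit3 (chr19:34583349-34583460): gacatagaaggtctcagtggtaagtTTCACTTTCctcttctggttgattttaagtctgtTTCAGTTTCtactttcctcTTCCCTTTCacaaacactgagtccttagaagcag
Oas1a (chr5:120907526-120907570): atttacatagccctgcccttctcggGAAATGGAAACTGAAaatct
Oas3 (chr5:120777695-120777759): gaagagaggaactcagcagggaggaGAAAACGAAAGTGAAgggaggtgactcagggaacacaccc
Rsad2 (chr12:26456538-26456596): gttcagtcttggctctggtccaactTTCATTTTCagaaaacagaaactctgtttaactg
Adar (chr3:89730468-89730502): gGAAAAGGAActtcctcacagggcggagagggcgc
Gbp5 (chr3:142496745-142496803): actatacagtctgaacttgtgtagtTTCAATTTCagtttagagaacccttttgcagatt
Gbp7 (chr3:142530259-142530317): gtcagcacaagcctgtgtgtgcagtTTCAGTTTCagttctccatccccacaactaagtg
Igtp (chr11:58199497-58199555): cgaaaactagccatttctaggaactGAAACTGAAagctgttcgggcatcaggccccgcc
Irgm2 (chr11:58214888-58214946): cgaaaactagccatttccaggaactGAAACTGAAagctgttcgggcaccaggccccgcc
Irgm1 (chr11:48871421-48871475): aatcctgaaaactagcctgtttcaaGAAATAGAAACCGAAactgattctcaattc
In *Ifit1* and *Ifit3* the letters stood 3 times each before the start, and in *Isg15* they stood 3 times in overlapping copies. The stretch of *Irgm2* is shown beside that of its neighbour *Igtp* because their letters are nearly the same. The windows of *Irf1*, *Irf7*, *Irf9*, *Ifit2*, *Oasl1*, *Oasl2*, *Cmpk2*, *Ifi35* and *Xaf1* held no ISRE letters. Of these, the windows of *Irf1* (ttccccgaa), *Ifit2* (ttcctggaa) and *Ifi35* (ttcacagaa) held GAS letters. Of the 11 members that fell against baseline in either 40 h group, described below, 8 had a window and 5 of these held ISRE letters, beside 16 of the 22 other members with a window. A match is a run of letters and not a measured binding site.

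Libraries held 23997363 to 42887589 counts on genes, and 3 counts corresponded to 0.0751 to 0.117 CPM, the scale used below for the level of a gene in a liver, which is its count scaled to a common library size. All 8 hepatocyte markers were present, with a summed level of 102000 to 144000 CPM per liver. NSC remnant 1 stood apart: it had the highest summed Kupffer cell markers, and leaving it out raised the genes that differed between NSC and vehicle remnants from 6 to 994. The count and median of the members between NSC and vehicle remnants are given with and without it, as are some single genes.

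Levels between genes were compared per length, in FPKM, fragments scaled to gene length and to the library total. At baseline the median member stood at 2.91 FPKM, and 7 of 38 lay under 1 FPKM. *Bst2*, which encodes tetherin, a membrane protein that holds budding virus particles on the cell, was far above the rest at 165 ± 10.9 FPKM (SD, n = 3). Next came *Ifi35* at 18.1 ± 3.29, *Igtp* at 15.0 ± 1.75, *Trim25* at 14.8 ± 1.84, and *Stat2* and *Isg15*, each at 13.9 FPKM with SDs of 2.72 and 1.67. These 5 did not differ from their neighbours in that order beyond their spread. The lowest were *Ifi44* at 0.293 ± 0.135 and *Oas3* at 0.123 ± 0.0103 FPKM, and *Oas3* had as few as 7 counts in a library.

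By 40 h after hepatectomy with vehicle, a group of these genes was lower than at baseline, while most did not pass. The edgeR quasi-likelihood test, adjusted over all 15024 genes, called 10 of 38 members lower and 0 higher at an adjusted p under 0.05: *Irf7*, *Dhx58*, *Ifit1*, *Ifit3*, *Oasl1*, *Rsad2*, *Cmpk2*, *Mx1*, *Igtp* and *Rtp4*. This was 26.3% of the members, beside 11.0% of all tested genes called lower and 12.7% called higher. The median log2 fold change of the members was −0.23, beside 0.01 over all tested genes, and 27 of 38 were below 0. After a correction for GC content it was −0.36, beside −0.10 over all genes. The vehicle and baseline livers did not overlap for 13 members that were lower and 2 that were higher, beside 22.0% and 24.2% of all genes. The count depended on single livers: it was 5 without baseline liver 1, 6 without vehicle remnant 2 and 6 without vehicle remnant 3, beside 15.2%, 18.6% and 16.3% of all genes then called in either direction. In bulk tissue, fewer cells of a type and less RNA per cell cannot be told apart. The baseline tissue is the resected lobes, and the 40 h tissue is the lobes left in place. A gap of 40 h is also not a whole number of days. Lobe and time of day therefore cannot be told apart from regeneration in either comparison with baseline.

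With NSC, 8 of 38 members were lower at 40 h than at baseline and 1 was higher. Those lower were *Irf7*, *Isg15*, *Dhx58*, *Ifit1*, *Ifit3*, *Rsad2*, *Mx1* and *Igtp*, and the one higher was *Eif2ak2*. The 21.1% called lower lay near the 16.5% of all tested genes called lower, so this share is not a result about the members, and the 2.63% called higher stood beside 18.2%. Their median log2 fold change was −0.15, beside 0.01 over all genes, with 22 of 38 below 0. It was −0.03 without baseline liver 2, −0.05 without NSC remnant 3 and −0.01 when libraries were scaled by size only, where the median of all genes was 0.15. Livers did not overlap for 9 members that were lower and 3 that were higher, beside 23.1% and 24.0% of all genes. The count fell to 4 without baseline liver 1 and to 5 without baseline liver 2, baseline liver 3 or NSC remnant 2, beside 26.9%, 28.7%, 23.4% and 25.6% of all genes then called in either direction and 34.7% with all livers. Because both comparisons share the baseline livers, a fall of the same gene in each is not 2 independent observations. An exact permutation test of 3 livers against 3 cannot go below p = 0.1 for a single gene, so p-values here come from the fit across all genes.

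**Figure D1:**
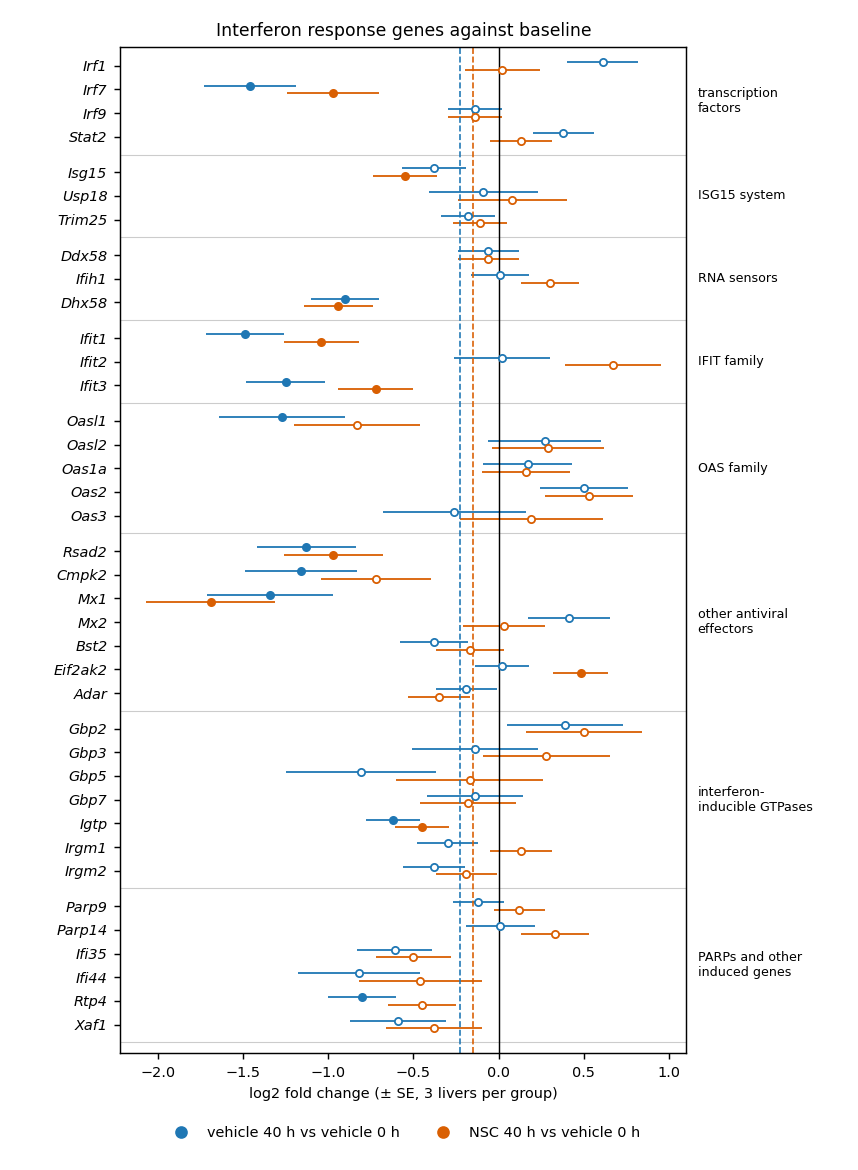
Log2 fold change (x axis) of each of the 38 members (y axis, by role) at 40 h against the 3 baseline livers, for vehicle remnants (blue) and NSC remnants (orange). Bars are ± 1 SE, filled points passed at an adjusted p under 0.05 and open points did not, and dashed lines mark the median member at −0.23 and −0.15. The filled points lie left of 0 except that of *Eif2ak2* with NSC.

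Among the 4 transcription factors, only *Irf7* passed. *Irf7* (chr7:141262706-141266481) encodes the factor that amplifies type I interferon production and is itself induced by interferon. Its level was 30.4, 40.8 and 24.8 CPM in the baseline livers, 14.8, 13.1 and 6.90 CPM in the vehicle remnants, and 18.6, 14.1 and 16.3 CPM in the NSC remnants. Every remnant lay under every baseline liver, and vehicle remnant 3 was the lowest. It fell 2.75-fold with vehicle (log2 fold change −1.46 ± 0.27, SE, adjusted p = 0.00312) and 1.96-fold with NSC (−0.97 ± 0.27, adjusted p = 0.0158). The vehicle call held with each liver left out in turn, and the NSC call was lost without baseline liver 2 or NSC remnant 2, with adjusted p up to 0.0637.

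*Irf1*, the factor induced through GAS sites by type II interferon, had a different course. It stood at 22.0, 28.4 and 18.2 CPM at baseline, 25.1, 35.6 and 44.0 CPM with vehicle, and 24.5, 24.9 and 20.3 CPM with NSC. Vehicle remnants reached higher but overlapped the baseline, and the NSC remnants lay within the baseline range. The change with vehicle was 0.61 ± 0.21 with an adjusted p of 0.0582, and of the fits that left out 1 liver it passed in those without baseline liver 2 (0.80, adjusted p = 0.0309) or vehicle remnant 1 (0.80, adjusted p = 0.0237). With NSC the change was 0.02 ± 0.22.

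The subunits of the ISRE-binding factor moved little. *Irf9* was 29.5, 36.6 and 23.3 CPM at baseline, 26.3, 26.4 and 28.2 CPM with vehicle, and 28.2, 27.1 and 25.6 CPM with NSC, so that all remnants lay inside the baseline range. *Stat2* was 49.8, 73.8 and 65.7 CPM at baseline, 74.0, 90.2 and 81.9 CPM with vehicle, and 57.2, 80.5 and 69.8 CPM with NSC. The vehicle remnants lay just above the baseline livers without overlap, yet the change of 0.38 ± 0.18 did not pass (adjusted p = 0.141), and that with NSC was 0.13 ± 0.18.

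The RNA sensors of the RIG-I family recognize viral RNA in the cytoplasm. *Dhx58*, which encodes LGP2, the member without a signalling domain, was 10.9, 16.3 and 13.3 CPM at baseline, 7.43, 7.44 and 6.75 CPM with vehicle, and 5.70, 8.52 and 6.93 CPM with NSC. All 6 remnants lay under the baseline livers and the vehicle and NSC remnants overlapped. It fell 1.87-fold with vehicle (adjusted p = 0.00774) and 1.91-fold with NSC (adjusted p = 0.00437), and both calls held in every fit that left out 1 liver. *Ddx58*, which encodes RIG-I, was 22.3, 25.9 and 19.5 CPM at baseline, 21.1, 23.4 and 20.3 CPM with vehicle, and 16.9, 27.4 and 20.6 CPM with NSC, with log2 changes of −0.06 ± 0.18 in both comparisons. *Ifih1*, which encodes MDA5, was 20.6, 24.4 and 19.5 CPM, then 22.7, 22.0 and 20.3 CPM with vehicle and 25.6, 32.5 and 21.3 CPM with NSC. Its ranges overlapped in each comparison, and its changes were 0.01 ± 0.17 and 0.30 ± 0.17.

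The IFIT family, whose proteins bind foreign RNA caps and block their translation, split between its 3 members, which lie together in 99.3 kb of chromosome 19 (chr19:34550694-34650009). *Ifit1* was 5.78, 6.47 and 5.08 CPM at baseline, 2.05, 1.76 and 2.36 CPM with vehicle, and 3.00, 2.55 and 2.86 CPM with NSC. The 3 groups did not overlap, with vehicle lowest and NSC between. Among the members it had the smallest adjusted p against baseline: it fell 2.81-fold with vehicle (−1.49 ± 0.23, adjusted p = 0.000949) and 2.06-fold with NSC (−1.04 ± 0.22, adjusted p = 0.00417), and no left-out liver ended either call. *Ifit3* was 10.3, 10.3 and 7.03 CPM at baseline, 4.0, 4.33 and 3.21 CPM with vehicle, and 5.31, 6.59 and 4.77 CPM with NSC, again in 3 ranges without overlap. It fell 2.38-fold with vehicle (adjusted p = 0.0025) and 1.65-fold with NSC (adjusted p = 0.0261). The NSC call of *Ifit3* was lost without baseline liver 1, baseline liver 2 or NSC remnant 3, with adjusted p up to 0.0917, and with scaling by library size only (0.0617). *Ifit3* has a close copy, *Ifit3b*, listed in the table under an older symbol, so the split of reads between them is uncertain.

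*Ifit2* did not fall. It was 2.02, 2.14 and 1.95 CPM at baseline, 2.33, 1.97 and 1.88 CPM with vehicle, and 4.29, 3.12 and 2.27 CPM with NSC. All 3 NSC remnants lay above the baseline livers, with remnant 1 the highest, and the change of 0.67 ± 0.28 did not pass (adjusted p = 0.0786). Of the fits that left out 1 liver, it passed in the one without NSC remnant 3 (0.87, adjusted p = 0.0288). With vehicle its change was 0.02 ± 0.28.

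In the ISG15 system, which attaches the ubiquitin-like protein ISG15 to other proteins, no member passed with vehicle. *Isg15* itself was 9.95, 12.4 and 10.4 CPM at baseline, 9.48, 6.74 and 8.97 CPM with vehicle, and 7.47, 6.62 and 8.26 CPM with NSC. Every remnant lay under every baseline liver. The decrease was 1.47-fold with NSC (−0.55 ± 0.19, adjusted p = 0.0396), and the change of −0.38 ± 0.19 with vehicle did not pass (adjusted p = 0.164). The NSC call was lost when any baseline liver, vehicle remnant 1, NSC remnant 1 or NSC remnant 2 was left out (adjusted p up to 0.134), with scaling by library size only (0.158), with all genes of at least 1 count (0.0615) and after GC correction (0.0998). *Trim25*, a ligase for ISG15 and for the activation of RIG-I, was 101, 80.2 and 82.7 CPM at baseline, 81.9, 68.3 and 82.7 CPM with vehicle, and 97.6, 75.7 and 70.9 CPM with NSC. *Usp18*, the enzyme that removes ISG15 and restrains the type I receptor, spread most in the NSC remnants, at 3.54, 8.59 and 11.2 CPM, around 7.33, 8.31 and 6.43 CPM at baseline. Neither gene passed in either comparison.

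The OAS family makes the second messenger that activates the RNA-degrading enzyme RNase L. *Oasl1*, whose protein lacks that activity and restrains the translation of *Irf7* mRNA, was 10.7, 13.4 and 11.9 CPM at baseline, 5.33, 5.49 and 4.06 CPM with vehicle, and 2.67, 9.64 and 8.02 CPM with NSC. Remnants lay under the baseline in both groups, and NSC remnant 1 was lower than every vehicle remnant while the other two were higher. It fell 2.41-fold with vehicle (−1.27 ± 0.37, adjusted p = 0.0299), a call that was lost without any one of the 3 baseline livers or of the 3 vehicle remnants (adjusted p up to 0.109). With NSC the change was −0.83 ± 0.37 (adjusted p = 0.104), and it passed without NSC remnant 2 (−1.17, adjusted p = 0.0482). The other 4 members did not pass. *Oas2* was the only one of them whose remnants all lay above the baseline, in both groups, with changes of 0.50 ± 0.26 and 0.53 ± 0.26 (adjusted p = 0.186 and 0.139). *Oas1a* was 2.12, 2.35 and 1.48 CPM at baseline, 2.20, 2.41 and 2.07 CPM with vehicle and 2.01, 2.17 and 2.5 CPM with NSC. *Oas3* was 0.632, 0.641 and 0.726 CPM, then 0.626, 0.752 and 0.258 CPM, and 0.870, 0.815 and 0.587 CPM in the same order.

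Of the 7 other antiviral effectors, 3 fell with vehicle and 2 with NSC. These were 42.9% and 28.6%, beside 11.0% and 16.5% of all genes called lower. *Rsad2*, which encodes viperin, was 9.76, 5.22 and 7.16 CPM at baseline, 3.83, 2.98 and 3.29 CPM with vehicle, and 5.25, 3.06 and 2.94 CPM with NSC. NSC remnant 1 reached the lowest baseline liver, and the vehicle remnants did not. It fell 2.19-fold with vehicle (adjusted p = 0.0158) and 1.96-fold with NSC (−0.97, adjusted p = 0.0227). Without NSC remnant 1 the log2 change with NSC was −1.3 (adjusted p = 0.00364). *Cmpk2*, a mitochondrial nucleotide kinase encoded beside viperin within 37.1 kb (chr12:26442753-26479835), was 7.33, 3.02 and 5.15 CPM at baseline, 2.83, 2.46 and 1.59 CPM with vehicle, and 3.27, 3.29 and 2.86 CPM with NSC. It fell 2.24-fold with vehicle (adjusted p = 0.0226), and its change with NSC was −0.72 ± 0.32 (adjusted p = 0.105). Baseline liver 1 was the highest for both genes, and without it neither passed with vehicle (*Rsad2* −0.88, adjusted p = 0.0785, *Cmpk2* −0.83, adjusted p = 0.115) nor *Rsad2* with NSC (−0.72, adjusted p = 0.106). Without vehicle remnant 2 or 3 neither passed with vehicle, at adjusted p of 0.0588 and 0.0554 for *Rsad2* and 0.0553 and 0.0886 for *Cmpk2*, and *Cmpk2* also missed without baseline liver 3 (adjusted p = 0.0618). *Rsad2* with NSC also missed without baseline liver 3, NSC remnant 2 or NSC remnant 3 (adjusted p = 0.0569, 0.0847 and 0.0718) and with scaling by library size only (0.0554), while *Cmpk2* with NSC passed without baseline liver 2 (−0.99, adjusted p = 0.0267).

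*Mx1*, a gene of the dynamin-like GTPase family, had the largest change of all members with NSC. It was 1.33, 1.86 and 1.35 CPM at baseline, 0.501, 0.466 and 0.849 CPM with vehicle, and 0.360, 0.543 and 0.509 CPM with NSC. No remnant reached a baseline liver. It fell 2.53-fold with vehicle (−1.34 ± 0.37, adjusted p = 0.0204) and 3.22-fold with NSC (−1.69 ± 0.38, adjusted p = 0.00524). At 12 to 61 counts per library, *Mx1* is one of the least expressed members, and its vehicle call was lost in 4 of the 9 fits that left out 1 liver (baseline liver 2 or 3, vehicle remnant 1 or 2), with adjusted p up to 0.0874. *Mx2*, its neighbour within 114 kb of chromosome 16 and listed as a polymorphic pseudogene, did not pass and had changes of 0.41 ± 0.24 and 0.03 ± 0.24. For both genes these are transcript levels, and whether this strain makes a functional protein from them was not measured.

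*Eif2ak2*, which encodes PKR, the kinase that halts translation on double-stranded RNA, was the single member called higher. It was 14.3, 14.6 and 14.5 CPM at baseline, 13.2, 14.7 and 16.1 CPM with vehicle, and 20.1, 23.6 and 17.1 CPM with NSC. The NSC remnants lay above both other groups without overlap. It rose 1.40-fold with NSC (0.48 ± 0.16, adjusted p = 0.0304), and its change with vehicle was 0.02 ± 0.16. The call was lost without any one baseline liver or NSC remnant 2 (adjusted p up to 0.128), and after a correction for GC content the change was 0.05 with an adjusted p of 0.804. *Adar*, an RNA editing enzyme that restrains RNA sensing, was 23.2, 27.9 and 23.4 CPM at baseline, 21.3, 26.1 and 17.6 CPM with vehicle, and 19.4, 22.4 and 16.3 CPM with NSC, and its change with NSC was −0.35 ± 0.18 (adjusted p = 0.142). *Bst2* did not pass either, with changes of −0.38 ± 0.20 and −0.17 ± 0.20.

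**Figure D2:**
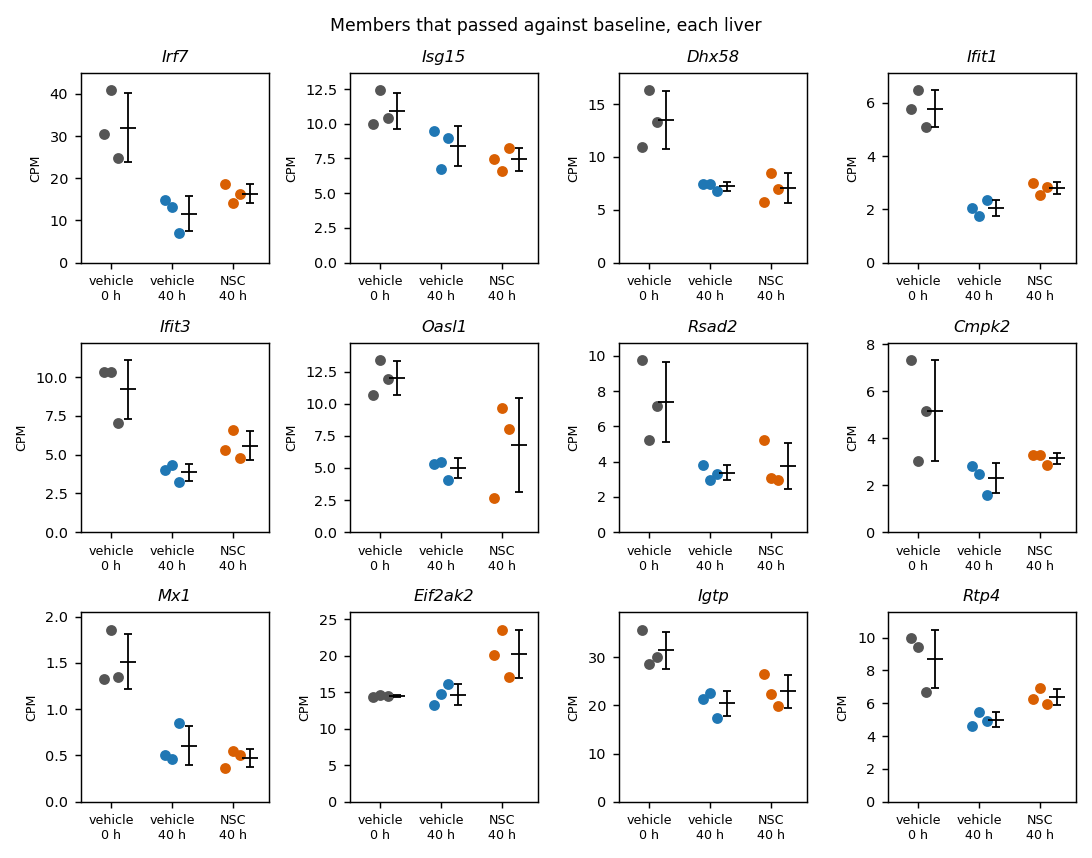
CPM (y axis, from 0) of the 12 members that passed against baseline in at least 1 comparison, in each of the 9 livers by group (x axis). Points are livers, and the black marks give the mean ± SD of 3 livers. For *Ifit1* the vehicle remnants at 1.76 to 2.36 CPM, the NSC remnants at 2.55 to 3.00 and the baseline livers at 5.08 to 6.47 form separate ranges, while for *Oasl1* NSC remnant 1 lies apart at 2.67 CPM.

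The interferon-inducible GTPases, which act in defence against intracellular pathogens and are classic targets of type II interferon, were called in 1 of 7 members. This was 14.3% called lower in each comparison, near the 11.0% with vehicle and 16.5% with NSC of all genes. The share is therefore not a result about these GTPases. *Igtp* was 35.8, 28.6 and 30.0 CPM at baseline, 21.4, 22.5 and 17.5 CPM with vehicle, and 26.6, 22.4 and 19.9 CPM with NSC, and every remnant lay under every baseline liver. It fell 1.54-fold with vehicle (adjusted p = 0.0163) and 1.37-fold with NSC (adjusted p = 0.0461). The vehicle call was lost without baseline liver 1 or vehicle remnant 3 (adjusted p up to 0.0766), and the NSC call in 7 of the 9 fits that left out 1 liver, with adjusted p up to 0.169: it held in those without NSC remnant 1 or vehicle remnant 3. It was also lost with scaling by library size only (0.184), with all genes of at least 1 count (0.0622) and in a fit of the 2 groups alone (0.0643). *Irgm1* was 64.7, 38.0 and 49.7 CPM at baseline, 37.6, 40.3 and 46.0 CPM with vehicle, and 55.5, 59.4 and 52.1 CPM with NSC, and overlapped the wide baseline range in both groups. The 4 guanylate-binding proteins lie together in 141 kb (chr3:142496934-142638008), and none passed. *Gbp5* was 2.97, 1.01 and 1.85 CPM at baseline, 1.60, 1.01 and 0.664 CPM with vehicle, and 2.28, 1.63 and 1.25 CPM with NSC. *Gbp7* was 8.25, 12.0 and 6.30 CPM, then 7.83, 7.02 and 9.23 CPM, and 9.36, 9.07 and 4.93 CPM. As listed, the span of *Igtp* overlaps that of *Irgm2* and the span of *Gbp5* overlaps those of *Gbp3* and *Gbp7*, each on the same strand, and these genes are close paralogs, so their split of reads is uncertain.

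Of the last group, the PARP enzymes and other induced genes, *Rtp4* passed with vehicle. *Rtp4*, which encodes a transporter protein known to bind the RNA of flaviviruses, was 10, 9.44 and 6.67 CPM at baseline, 4.58, 5.49 and 4.91 CPM with vehicle, and 6.24, 6.93 and 5.95 CPM with NSC. The vehicle remnants lay under both other groups. It fell 1.74-fold with vehicle (−0.80 ± 0.20, adjusted p = 0.0142), a call lost without baseline liver 1 or vehicle remnant 1 (adjusted p up to 0.0673), and changed by −0.45 ± 0.20 with NSC (adjusted p = 0.104). *Ifi35* was 28.1, 39.1 and 30.0 CPM at baseline, 19.0, 22.8 and 22.1 CPM with vehicle, and 15.0, 24.9 and 29.0 CPM with NSC. Its vehicle change of −0.61 ± 0.22 missed the threshold (adjusted p = 0.067) and passed when NSC remnant 1 or 3 was left out of the fit (adjusted p = 0.0109 and 0.0482), and its NSC change of −0.50 ± 0.22 passed without NSC remnant 3 (adjusted p = 0.0363). *Ifi44* was 1.48, 2.84 and 1.25 CPM, then 1.30, 0.829 and 1.03 CPM with vehicle and 1.59, 1.26 and 1.21 CPM with NSC. *Parp9*, *Parp14* and *Xaf1* did not pass, with changes between −0.59 and 0.33.

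The members were not a uniform block across livers. The median member, centred on its mean over the 9 livers on the log2 CPM scale, stood at 0.13, 0.23 and −0.01 in the baseline livers, −0.06, −0.11 and −0.20 in the vehicle remnants, and 0.09, 0.07 and −0.13 in the NSC remnants. The baseline and vehicle livers did not overlap on this scale, and the NSC remnants overlapped both. The gap from −0.01 to −0.06 between baseline and vehicle was smaller than the pooled SD within groups, 0.11. Baseline liver 3 was the lowest of its group, and remnant 3 was the lowest in each 40 h group. Pearson's r of each member with the mean of the other members, over 9 livers in 3 groups, ran from −0.50 for *Stat2* to 0.96 for *Ifit3*, and 7 of 38 were at −0.03 or lower. It is given as a description, since livers of a group share their condition.

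**Figure D3:**
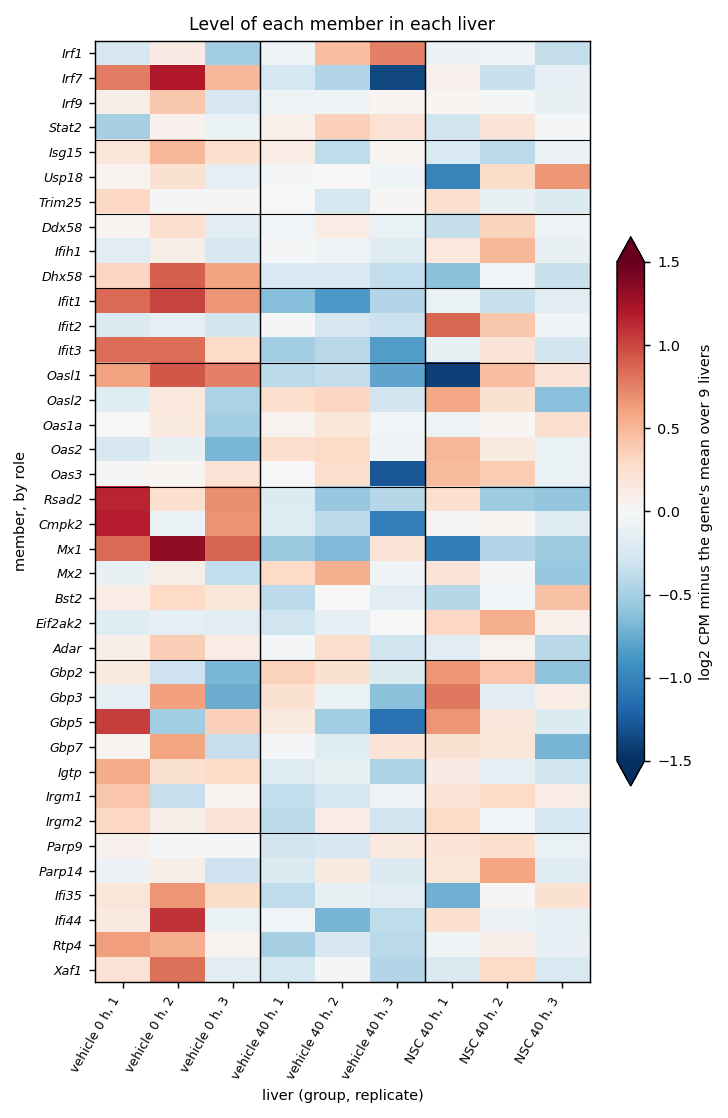
Level of each of the 38 members (rows, by role, with lines between roles) in each of the 9 livers (columns), as log2 CPM minus the mean of that gene over the 9 livers, with red above and blue below the mean. *Irf7*, *Ifit1*, *Ifit3*, *Oasl1* and *Mx1* are red in the 3 baseline livers, whereas *Oasl1* and *Usp18* have their lowest level in NSC remnant 1.

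NSC and vehicle remnants were then compared directly at 40 h, which asks whether treatment altered these genes in regenerating liver. No member passed: 0 of 38 were called by edgeR in either direction, beside 0.0% of all tested genes called higher and 0.0399% called lower (6 genes). DESeq2 likewise called 0, and 5 members had an unadjusted p under 0.05, beside 2929 of all 15024 genes, so this count is not a result about the members. The median member was 0.18 log2 units higher with NSC, beside 0.02 over all genes, and 29 of 38 were above 0, beside 51.5% of all genes. Remnants did not overlap for 6 members that were higher and 1 that was lower with NSC, beside 10.3% and 12.2% of all genes. The median was 0.10 without NSC remnant 2, 0.30 without NSC remnant 3 and 0.32 with scaling by library size only, where that of all genes was 0.14. Leaving out NSC remnant 1 gave a median of 0.17 with 25 of 38 above 0, and 1 member then passed: *Oasl1*, higher with NSC by 0.83 ± 0.20 (adjusted p = 0.0301), beside 6.46% of all genes called.

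No difference passed in any role group. By unadjusted p the first was *Eif2ak2*, 1.38-fold higher with NSC (0.47 ± 0.16, adjusted p = 0.148), and the second *Irf1*, 1.5-fold lower (−0.59 ± 0.22, adjusted p = 0.176), at 20.3 to 24.9 CPM with NSC beside 25.1 to 44.0 CPM with vehicle. *Irgm1* followed (0.43 ± 0.18, adjusted p = 0.22), with NSC remnants at 52.1 to 59.4 CPM above all vehicle remnants at 37.6 to 46.0 CPM. The 3 IFIT genes were each higher with NSC, *Ifit2* by 0.65 ± 0.27, *Ifit3* by 0.53 ± 0.23 and *Ifit1* by 0.45 ± 0.23, with adjusted p between 0.224 and 0.299. Without NSC remnant 1 the difference of *Ifit2* was 0.39 (adjusted p = 0.403). *Ifit1*, *Ifit3*, *Cmpk2*, *Eif2ak2*, *Irgm1* and *Rtp4* were the 6 whose remnants did not overlap on the higher side, and *Irf1* was the 1 on the lower side.

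Within each role group, the difference ran from near 0 to its largest value as follows. Among the transcription factors it was 0.00 ± 0.16 for *Irf9* and −0.59 for *Irf1*, with *Irf7* at 0.49 ± 0.27 (adjusted p = 0.329). In the ISG15 system it was 0.07 ± 0.16 for *Trim25* and −0.17 ± 0.19 for *Isg15*. The RNA sensors spanned 0.00 ± 0.18 for *Ddx58* to 0.29 ± 0.17 for *Ifih1*, and the OAS family 0.00 ± 0.26 for *Oas1a* to 0.45 ± 0.42 for *Oas3*. Among the other effectors the smallest were *Rsad2* (0.16 ± 0.30) and *Adar* (−0.16 ± 0.18). The GTPases ran from −0.04 ± 0.28 for *Gbp7* to 0.64 ± 0.44 for *Gbp5*, and the last group from 0.11 ± 0.22 for *Ifi35* to 0.36 ± 0.37 for *Ifi44*. With 3 livers a group these errors leave room for differences of either sign in most members.

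**Figure D4:**
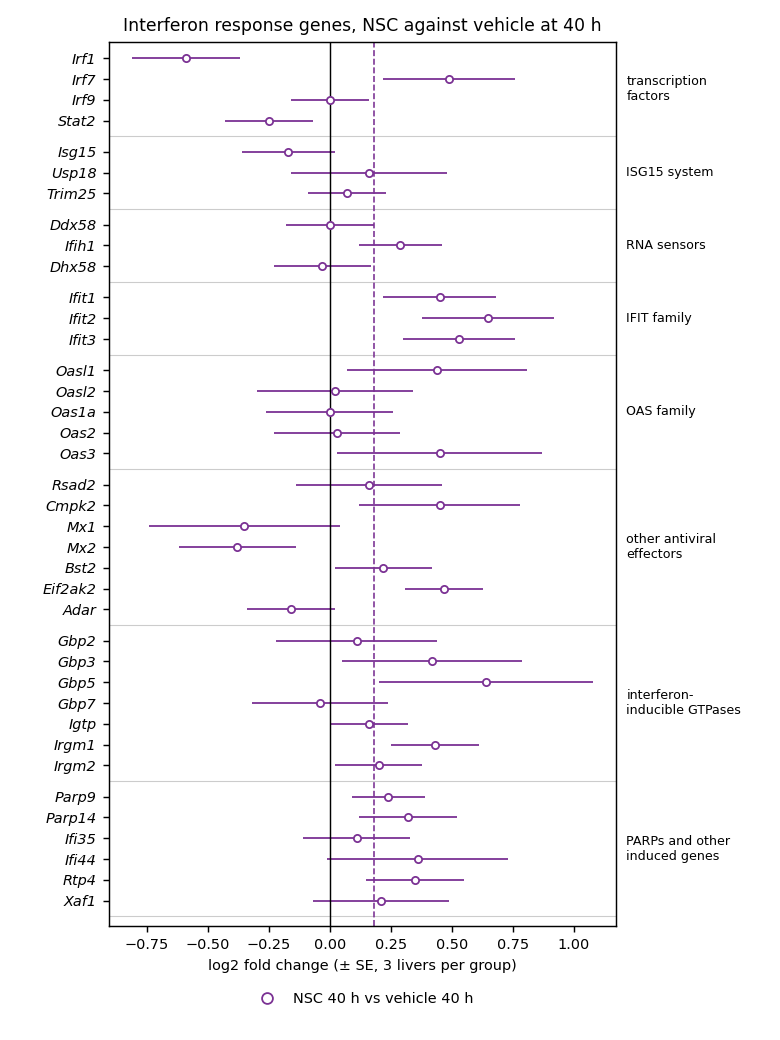
Log2 fold change (x axis) of each of the 38 members (y axis, by role) in NSC against vehicle remnants at 40 h, 3 livers per group, with bars of ± 1 SE. Every point is open because no member passed, the dashed line marks the median member at 0.18, and 29 of 38 points lie right of 0, with *Irf1* farthest left at −0.59.

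The rest of the pathway was read from lists drawn up for this purpose. Interferon genes themselves were at or under the floor: of 21 ligand genes listed, 18 had 0 counts in all 9 livers, and the other 3, *Ifnk*, *Ifnz* and *Ifng*, had at most 2 counts in a library. A count of 0 allows up to 3 counts, 0.0751 to 0.117 CPM. Of 10 receptor and signalling genes, 2 were higher with vehicle and none lower, and 4 were higher and 1 lower with NSC. These are 20% higher with vehicle, beside 12.7% of all genes, and 40.0% higher and 10% lower with NSC, beside 18.2% and 16.5%. Both chains of the type II receptor rose: *Ifngr1* was 12.3, 11.7 and 14.0 CPM at baseline, 23.5, 21.6 and 19.5 CPM with vehicle, and 20.4, 26.3 and 21.2 CPM with NSC (0.77 ± 0.15 and 0.84 ± 0.15, adjusted p = 0.00433 and 0.00181). *Ifngr2* rose by 0.72 ± 0.18 and 1.04 ± 0.18 (adjusted p = 0.0136 and 0.00136). The type I receptor genes *Ifnar1* and *Ifnar2* changed by no more than 0.17 in either comparison and did not pass. With NSC alone *Ifnlr1* and *Il10rb*, the chains of the type III receptor, were called higher (2.00 ± 0.57 and 0.61 ± 0.17, adjusted p = 0.017 and 0.0178), with *Ifnlr1* at only 0.390 to 0.781 CPM, and *Tyk2* was called lower (−0.51 ± 0.15, adjusted p = 0.0182). None of these differed between NSC and vehicle remnants at an adjusted p under 0.05.

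The phosphatases that NSC inhibits and the other brakes on the pathway were measured as transcripts. *Ptpn11*, for SHP2, was 82.8, 70.1 and 80.4 CPM at baseline, 85.4, 94.5 and 86.8 CPM with vehicle, and 93.9, 83.6 and 76.4 CPM with NSC, and did not pass. *Ptpn6*, for SHP1, fell with NSC (−0.47 ± 0.14, adjusted p = 0.0229) and was −0.19 ± 0.14 with vehicle. Of 13 negative regulators tested, 4 rose and 1 fell with vehicle, and 3 rose and 4 fell with NSC. The shares were 30.8% and 7.69% with vehicle, beside 12.7% and 11.0% of all genes, and 23.1% and 30.8% with NSC, beside 18.2% and 16.5%. *Socs3*, which blocks JAK kinases after cytokine signalling, was 11.2, 14.9 and 5.81 CPM at baseline, 79.6, 82.5 and 62.3 CPM with vehicle, and 33.3, 38.5 and 26.7 CPM with NSC. The groups did not overlap. It rose by 2.81 ± 0.30 with vehicle and 1.62 ± 0.29 with NSC (adjusted p = 0.000231 and 0.00222), and the direct difference of −1.19 ± 0.28 did not pass (adjusted p = 0.0917). *Socs1* was under the filter, at 0 to 0.311 CPM. The phosphatase genes *Ptpn1* and *Ptpn2* rose in both comparisons, *Ptpn1* by 0.97 ± 0.15 and 0.60 ± 0.15 and *Ptpn2* by 0.81 ± 0.18 and 0.83 ± 0.18, with adjusted p between 0.00109 and 0.00933. *Trex1*, a DNase that keeps self DNA from the sensors, fell with vehicle and NSC (−0.67 ± 0.22 and −0.96 ± 0.22, adjusted p = 0.0417 and 0.00565).

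Upstream of interferon production, 15 sensing and induction genes were tested, of which 4 rose and 1 fell with vehicle and 5 rose and 3 fell with NSC. These shares, 26.7% and 6.67% with vehicle and 33.3% and 20% with NSC, stood beside 12.7% and 11.0% and beside 18.2% and 16.5% of all genes. *Irf2*, a factor that competes with IRF1, fell in both (−1.12 ± 0.25 and −1.05 ± 0.25, adjusted p = 0.00801 and 0.00753). The cytosolic DNA pathway genes *Mb21d1*, for cGAS, and *Tmem173*, for STING, rose in both (*Tmem173* 1.24 ± 0.27 and 1.26 ± 0.27, adjusted p = 0.00612 and 0.00396), *Mb21d1* from 0.0948 to 0.336 CPM at baseline to at most 1.23 CPM. *Ikbke*, an interferon-inducing kinase, was 30.0, 39.8 and 40.4 CPM at baseline, 70.7, 72.4 and 68.0 CPM with vehicle, and 36.0, 50.1 and 29.7 CPM with NSC. It rose with vehicle (0.94 ± 0.19, adjusted p = 0.0044), and the direct difference was −0.87 ± 0.19 (adjusted p = 0.0849). *Mavs*, the mitochondrial adaptor of the RNA sensors, fell with NSC (−0.79 ± 0.15, adjusted p = 0.00244), and so did *Ticam1*, the adaptor of TLR3 (−0.63 ± 0.15, adjusted p = 0.00569).

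Further interferon-stimulated genes outside the 38 were called in shares no larger than those of all genes in either direction. Of 61 tested, 6 rose and 5 fell with vehicle, and 7 rose and 7 fell with NSC, with medians of −0.11 and 0.04, and 0 passed in the direct comparison, where the median was 0.24 and 11 had an unadjusted p under 0.05, beside 2929 of all 15024 genes. The shares called higher and lower were 9.84% and 8.20% with vehicle, beside 12.7% and 11.0% of all genes, and 11.5% each with NSC, beside 18.2% and 16.5%. *Slfn9*, a Schlafen family gene, rose most, from 0.948, 1.1 and 1.35 CPM to 12.8, 16.5 and 15.5 CPM with vehicle and 26.1, 27.9 and 11.9 CPM with NSC (3.72 ± 0.32 and 4.28 ± 0.32, adjusted p = 4.32e-05 and 1.36e-05). *Ifi27l2a* and *Plac8* rose in both comparisons by 1.08 to 1.42, and *Apol9b* fell in both (−1.62 ± 0.26 and −1.54 ± 0.26). *Cxcl10*, a chemokine that attracts T cells, was not among the 3 smallest adjusted p of its list and is named after its values were seen: it was 1.90, 0.672 and 1.02 CPM at baseline, 5.13, 3.01 and 6.13 CPM with vehicle, and 1.44, 2.04 and 1.25 CPM with NSC, which lay under the vehicle remnants without passing (−1.58 ± 0.39, adjusted p = 0.0907).

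Markers of other liver cells moved over the same livers. The 12 Kupffer cell and macrophage markers summed to 250 to 351 CPM at baseline, 244 to 443 CPM with vehicle and 419 to 709 CPM with NSC, of which 709 was NSC remnant 1, and each of the 12 exceeded 3 counts in at least 1 liver. Of these, 2 rose with vehicle (16.7%, beside 12.7% of all genes) and 5 rose with NSC (41.7%, beside 18.2%). None passed in the direct comparison. The 9 monocyte and neutrophil markers summed to 4.67 to 13.4, 15.8 to 26.0 and 15.8 to 33.1 CPM. Lymphocyte markers were scarce, with the 12 T and NK cell markers at 2.90 to 6.70, 1.48 to 1.84 and 3.19 to 3.68 CPM and the 4 B cell markers at 1.62 to 8.05, 0.48 to 2.41 and 1.57 to 2.25 CPM. The 7 sinusoidal endothelial markers summed to 213 to 223, 130 to 200 and 154 to 264 CPM and the 7 stellate cell markers to 194 to 231, 303 to 354 and 239 to 411 CPM. Of the endothelial markers, 3 fell with vehicle and 1 with NSC (42.9% and 14.3%, beside 11.0% and 16.5% of all genes). Of the stellate markers, 4 rose with vehicle and 2 with NSC (57.1% and 28.6%, beside 12.7% and 18.2%). The 8 plasmacytoid dendritic cell markers summed to 142 to 158, 102 to 131 and 105 to 170 CPM, most of it *Bst2*, which is itself a member, and *Siglech*, the defining marker, was at 0.183 to 0.695 CPM. The part of these cell types in the changes of the members was not tested.

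The genes outside the 38 whose log2 CPM was most like the mean of the members over the 9 livers included *Klhl24*, *Foxo1*, *Ddx60*, *Abca6*, *Gm5239*, *Nr1d2*, *Pard3b*, *4833420G17Rik* and *Itch*, with Pearson's r from 0.954 down to 0.918. Of these, only *Ddx60*, a helicase, was on a list of interferon-stimulated genes, and it fell with vehicle (−1.23 ± 0.27, adjusted p = 0.00712). Mean levels of *Klhl24* were 55.1, 30.5 and 40.9 CPM at baseline, with vehicle and with NSC, and those of *Nr1d2* were 41.9, 12.3 and 28.3 CPM, the same order as for *Irf7* and *Ifit1*. The r values describe 9 livers that share 3 conditions and were picked as the highest of all tested genes.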

How the data were processed

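The 9 libraries, 3 from each group, are RNA-Seq of whole liver. According to the study's methods and the submitters' processing notes, the authors aligned reads from stranded poly(A) libraries with STAR 2.6.1 and counted them on genes with featureCounts of Subread 1.5.1, and the deposited count table holds raw counts per gene and library. The authors also deposited FPKM, which scales counts to gene length and library total, and these values served only to compare levels between genes. The notes name a human build, whereas the listed genes carry mouse identifiers, and 27 of 38 members have the same position in GENCODE M21 (GRCm38). Positions of genes are those of the table.

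Counts were analysed with edgeR 4.0.16 in R 4.3.3: TMM factors, filterByExpr, and 1 robust quasi-likelihood fit of all 9 libraries with group as the only term, adjusted by the Benjamini-Hochberg method over 15024 genes. "Passed", "rose" and "fell" mean an adjusted p under 0.05. CPM uses TMM-scaled library sizes, and the livers' median scores use a prior count of 2. The members, role groups, marker and pathway lists were chosen with earlier results of these data known. Values per liver are given for the transcription factors, for the 5 members with the smallest adjusted p and the 3 with the largest change in each comparison, and for the smallest and largest difference of each role group between the 40 h groups, with others added for completeness. Outside the members, named genes are *Ptpn11*, *Ptpn6*, *Socs1*, *Socs3* and up to 3 per list and comparison with the smallest adjusted p, with others named beside them. Some genes that these rules pick are not reported here. Of 231 listed symbols, 229 were found.

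The study describes these libraries as biological replicates. Floors of 3 counts cover counting error only. No library duplicated another (chi-square per gene within groups 24.3 to 147). The procedure was tested on simulated data. Alternatives were DESeq2 1.42.0, RLE factors, library size only, 2 other filters on low counts, the fit of 2 groups alone, a term for replicate number, 2 stricter or looser thresholds and each library left out in turn. A correction for GC content (loess span 0.5, GC known for 99.2% of tested genes) was chosen after seeing the data.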

Additional observations from a re-analysis of the deposited data

How the results depend on the processing

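Precision was limited by 3 livers per group, and 3 counts (0.0751 to 0.117 CPM) bound what a count of 0 allows. With library size only, the median of all genes shifted to 0.15 with NSC against baseline and to 0.14 in the direct comparison, the members' medians became −0.01 and 0.32, and 5 members (1 higher, 4 lower) passed with NSC. Requiring an absolute log2 fold change over 1.5 as well left 0 members with vehicle and 1 with NSC. After GC correction the members' median with vehicle was −0.36, beside −0.10 over all genes, and with NSC 10 members were lower and *Eif2ak2* did not pass. The cause of these shifts was not tested. Apart from the left-out livers, member counts in this section stand without the share of all genes called under the same setting. They describe how the calls depend on processing and are not a result about the members. Fits that leave out a liver also have fewer residual degrees of freedom. Leaving out 1 liver at a time gave 5 to 11 members passing with vehicle, 4 to 9 with NSC and 0 to 1 in the direct comparison. Of all genes, 14.8% to 29.5%, 23.4% to 33.9% and 0.0% to 6.46% were then called in either direction. The members' medians were −0.32 to −0.22, −0.22 to −0.03 and 0.10 to 0.30. Calls of *Irf7*, *Dhx58*, *Ifit1* and *Ifit3* with vehicle and of *Dhx58*, *Ifit1* and *Mx1* with NSC held in all 17 alternative fits at an adjusted p under 0.05, and no called member changed direction in these fits. Under the fold requirement above, these calls were lost except *Mx1* with NSC. *Isg15* and *Igtp* with NSC missed the threshold in 10 of these 17 fits each. The study does not state whether a resection specimen and a remnant of the same number came from the same mouse. In same-numbered pairs, the livers' deviations from their group means correlated at −0.0479 to 0.134, mostly above 0. In the other pairs the range was −0.115 to 0.0659. These ranges overlap and cannot settle a pairing, so the main fit had no term for it. With the replicate block, 11 members passed with vehicle, 9 with NSC and 0 directly, with medians of −0.25, −0.13 and 0.17, and *Isg15* with NSC missed the threshold (adjusted p = 0.0515 by edgeR).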
